A study of Mus musculus with 48 samples.

Results

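The genotype by diet interaction in fasted liver asks whether the liver transcriptome responded to a high-fat diet (HFD) in the same way with and without hepatocyte p110α. It is the HFD minus CTRL difference in p110αhep-/- mice minus the HFD minus CTRL difference in p110αhep+/+ mice, on the log2 scale. It was computed from the 4 groups labelled as fasted, which hold 24 of the 48 mice of the series, 6 per group and 1 array per mouse. The p110αhep-/- mice (LKO in the labels) carried floxed p110α alleles and a Cre transgene driven by the albumin promoter. The p110αhep+/+ mice (LWT) were littermates with the floxed alleles and no Cre, so Cre expression and the loss of p110α cannot be told apart. All mice were males, 12 weeks old when they were put on HFD, which had 60% of its calories from fat, or on CTRL diet for 12 weeks. Before sacrifice at ZT16 they were fasted for 24 h.

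p110α is a catalytic subunit of class I phosphoinositide 3-kinase and turns PIP2 into PIP3 at the plasma membrane after the insulin receptor is activated. PIP3 recruits AKT, which in hepatocytes restrains FOXO1, a factor that promotes glucose output, and activates SREBP1c, which drives fatty acid synthesis. SREBP2 is the related factor for cholesterol synthesis and uptake, and PPARα is the factor by which fasting induces fatty acid oxidation. A long HFD loads hepatocytes with triglyceride that is stored in lipid droplets, and it is accompanied by changes in resident and recruited immune cells and in matrix-producing cells. An interaction below 0 means that the HFD minus CTRL difference was lower without p110α, whether because a rise was missing or because a fall was added. Group levels or diet differences are given beside it for part of the genes. Where the interaction stands alone, it does not tell these patterns apart.

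Levels are normalized log2 intensities of the brightest probe of a gene, and levels of different genes cannot be set against each other. A gene was called when limma gave a Benjamini-Hochberg adjusted p of at most 0.05 over all probes kept and the interaction exceeded 1.5-fold. Of the spots, 53.0% to 58.7% were well above background on the 24 arrays. Correlations between these arrays lay between 0.9825 and 0.997, no pair of arrays was identical, and all 24 lay closest to the mean of their own group. The arrays were washed in 2 batches that each held 3 mice of every group. Mice 5 and 6 of the p110αhep-/- CTRL group were both above or both below the other 4 mice of that group in 171 of the 386 called genes (44.3%, and 30.9% of all genes). Mice 5 and 6 of the p110αhep+/+ HFD group did so in 154 (39.9%, and 26.8% of all genes). The median over the 15 pairs of mice of a group was 10.9% of called genes in the former group and 11.7% in the latter. Without mice 5 and 6 of the p110αhep-/- CTRL group, 348 genes were called, of which 296 were among the 386. Pik3ca, which encodes p110α, had an interaction of 0.17 ± 0.11 (SE; limma adjusted p = 0.41). Its probe (chr3:32364747-32364806, mm9) read 12.95 to 13.45 on the 12 arrays of p110αhep+/+ mice and 13.27 to 13.71 on those of p110αhep-/- mice, hence no lower in the knockout. Whether this probe lies within the deleted exons could not be determined, so it does not check the labels.

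The interaction was called for 386 of 20486 genes (1.88%), with 116 above 0 (0.566%) and 270 below 0 (1.32%). Of these, 93 (24.1%), or 45 of those above 0 (38.8%) and 48 of those below (17.8%), carry a provisional symbol or a clone, transcript or probe identifier in place of a gene name; they were counted as genes but not named. Without a fold threshold 1042 genes passed (5.09%). The median over all genes was 0.01, and 47% of them were below 0. Among the called genes the median size of the interaction was 0.78. The most frequent pattern, in 184 of the 270 genes below 0, was a mean that was higher on HFD in p110αhep+/+ mice and lower on HFD in p110αhep-/- mice. In a further 51 genes both genotypes had a higher mean on HFD, by less without p110α, and in 35 both had a lower mean. The larger diet difference lay in p110αhep+/+ mice for 166 of the 270 genes and in p110αhep-/- mice for 104. On HFD, 253 of the 270 had a lower mean in p110αhep-/- than in p110αhep+/+ mice. Of the 116 genes above 0, 88 had a mean that was lower on HFD in p110αhep+/+ mice and higher on HFD in p110αhep-/- mice. All 386 had the same sign within both washing batches, against 65% of all genes, but these batches are parts of the same data that chose the genes. With the 3 mice per group of a single batch, 9 genes were called in batch 1 (all below 0) and 155 in batch 2, where 42.6% of the calls were below 0 against 69.9% with all mice.

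**Figure D1:**
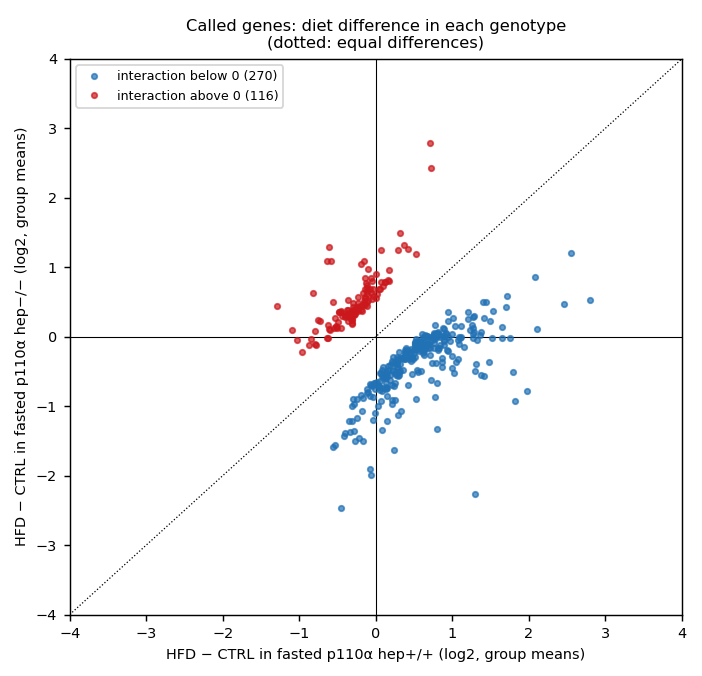
HFD minus CTRL difference of group means (log2) in fasted p110αhep+/+ mice (horizontal) and p110αhep-/- mice (vertical) for the 386 called genes, with the dotted line where both are equal. Most of the 270 genes below the line lie where the p110αhep+/+ difference is above 0 and the p110αhep-/- difference is below 0 (184 genes).

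Lipid droplet proteins held the interaction of largest size among the called genes with a name. Cidec encodes a protein that fuses lipid droplets into larger ones, and its probe lies at chr6:113374693-113374752 (mm9). In p110αhep+/+ mice its level ran from 12.07 to 13.49 (median 12.53) on CTRL diet and from 13.51 to 14.65 (median 13.91) on HFD. In p110αhep-/- mice it ran from 11.22 to 13.85 (median 12.20) on CTRL diet and from 8.94 to 11.95 (median 10.18) on HFD. Cidec was thus higher on HFD in every p110αhep+/+ mouse than in any on CTRL diet. The diets overlapped in p110αhep-/- mice, where the HFD mice were mostly lower, and on HFD the genotypes did not overlap. The interaction was -3.49 ± 0.59 (SE; limma adjusted p = 0.000448), so that the HFD to CTRL ratio was 11.3-fold lower without p110α. It was -3.32 and -3.31 within washing batches 1 and 2, and -3.10 (adjusted p = 0.000781) without mice 5 and 6 of the p110αhep-/- CTRL group, whose levels of 13.85 and 13.84 were the highest of that group.

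Cidea, a related droplet protein, ran from 9.54 to 14.00 on CTRL diet and from 13.54 to 15.22 on HFD in p110αhep+/+ mice. In p110αhep-/- mice it ran from 5.34 to 6.25 and from 5.61 to 6.99, and was above background in 4 and 5 of 6 mice. It was therefore near background without p110α on either diet, and its interaction of -2.42 ± 0.69 (limma adjusted p = 0.0318) lost the call in 7 of the 24 fits that left out 1 mouse. Plin2 coats droplets in hepatocytes. Its median was 15.24 and 15.19 on CTRL diet and HFD in p110αhep+/+ mice, and 15.46 and 14.38 in p110αhep-/- mice, an interaction of -1.08 ± 0.26 (adjusted p = 0.0108). These 3 were the called genes among 27 measured droplet and triglyceride turnover genes (11.1%, all below 0), whose median was -0.20. Cd36, a fatty acid transporter, had 0.89 (adjusted p = 0.126), and the lipases Pnpla2 and Lipe had -0.20 and -0.08 (adjusted p = 0.554 and 0.827). Dbi, picked with its value already seen, was among the genes of smallest p. It encodes a protein that binds acyl-CoA esters. Its level ran from 16.50 to 17.33 in the other 3 groups and from 15.82 to 16.04 in p110αhep-/- mice on HFD, without overlap, and its interaction was -1.14 ± 0.13 (adjusted p = 5.81e-07).

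Among the 21 genes listed for de novo lipogenesis, 8 were called (38.1%), 7 below 0 and 1 above, and the median was -0.53. The called members include Elovl5, Fads1 and Fads2, which act on polyunsaturated fatty acids, so this share does not describe de novo synthesis alone. Scd1, which makes monounsaturated fatty acids (probe chr19:44469387-44469446, mm9), had nearly the same level on both diets in p110αhep+/+ mice, from 15.57 to 16.78 (median 16.58) on CTRL diet and from 15.77 to 17.03 (median 16.33) on HFD. In p110αhep-/- mice it ran from 14.08 to 16.05 (median 15.79) on CTRL diet and from 13.07 to 13.46 (median 13.36) on HFD. The diets did not overlap in p110αhep-/- mice, where each HFD mouse was lower. The interaction of Scd1 was -2.17 ± 0.35 (limma adjusted p = 0.000286), and -2.52 (2.33e-07) without CTRL mice 5 and 6, which had the lowest Scd1 of their group.

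The other called enzymes also had lower means on HFD in p110αhep-/- mice, with smaller differences in p110αhep+/+ mice. Elovl6, which elongates palmitate, had diet differences of -1.51 without and -0.27 with p110α (interaction -1.18 ± 0.27, adjusted p = 0.00734). Elovl5, which elongates polyunsaturated fatty acids, had -1.19 and -0.04 (interaction -1.12 ± 0.25, 0.00712). Me1, malic enzyme, which supplies NADPH, had -0.69 and 0.42, and lost the call in 5 of the 24 fits without 1 mouse. Fads1 and Fads2, the desaturases of polyunsaturated fatty acids, had interactions of -0.86 and -0.78 (0.0137 and 0.0388), and the call for Fads2 was lost in 11 of those fits. The other 4 probes of Fads2 had values between -0.61 and -0.11, and those of Fads1 had -0.20 and -0.41, none of which passed the adjusted p. The brightest probe of Acacb, a mitochondrial acetyl-CoA carboxylase, had -1.95 ± 0.39 (0.00257), but its other probes, with mean levels of 7.38 and 6.01 against 11.81, had 0.35 and 0.20 (0.212 and 0.737). Mlxipl, which encodes the glucose-responsive factor ChREBP, was the member above 0, at 0.74 ± 0.14 (0.0013), while its other probes had 1.01 and 0.08 (0.00183 and 0.684). It was higher on HFD in each p110αhep-/- mouse (14.19 to 14.66) than in any on CTRL diet (13.86 to 14.07). Fatty acid synthase (Fasn) and liver pyruvate kinase (Pklr) had -0.80 and -1.005 and were not called (0.0811 and 0.0505), and Srebf1, which encodes SREBP1c, had 0.10 (0.886).

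Cholesterol synthesis and uptake was the list with the largest share of called members, 13 of 24 (54.2%), all below 0, with a median of -0.73. Here the p110αhep+/+ difference was usually above 0 and the p110αhep-/- difference below 0, with list medians of 0.50 and -0.38. Sqle encodes squalene epoxidase, a rate-controlling step of the pathway (probe chr15:59162688-59162747, mm9). It ran from 6.17 to 7.83 (median 6.88) on CTRL diet and from 7.51 to 10.27 (median 8.59) on HFD in p110αhep+/+ mice, and from 5.58 to 7.98 (median 6.04) and from 5.16 to 5.76 (mean 5.46) in p110αhep-/- mice. Only 1 of the 6 p110αhep-/- mice on HFD was above background, and none reached the lowest p110αhep+/+ mouse on HFD. The fitted interaction of Sqle was -2.54 ± 0.59 (limma adjusted p = 0.00921), but with 5 of those 6 levels not well above background its size is uncertain.

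Fdps makes farnesyl pyrophosphate, the precursor of squalene (probe chr3:88897549-88897608, mm9). Its levels were 10.71 to 11.65 (median 11.27) on CTRL diet and 12.18 to 13.79 (median 12.27) on HFD in p110αhep+/+ mice, against 10.27 to 11.34 (median 10.76) and 9.95 to 10.50 (median 10.22) in p110αhep-/- mice. The diets did not overlap with p110α and overlapped without it, and the interaction was -1.93 ± 0.33 (adjusted p = 0.000425). Along the pathway, Mvk and Idi1 of the mevalonate branch had interactions of -1.01 and -1.24 (0.00524 and 0.0264), the latter with the call lost in 4 of the 24 fits without 1 mouse. The sterol branch genes Lss, Cyp51, Msmo1, Nsdhl, Hsd17b7 and Dhcr7 lay between -0.64 for Lss and -1.49 for Cyp51. Srebf2, which encodes SREBP2, was not called (-0.32, 0.116).

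**Figure D2:**
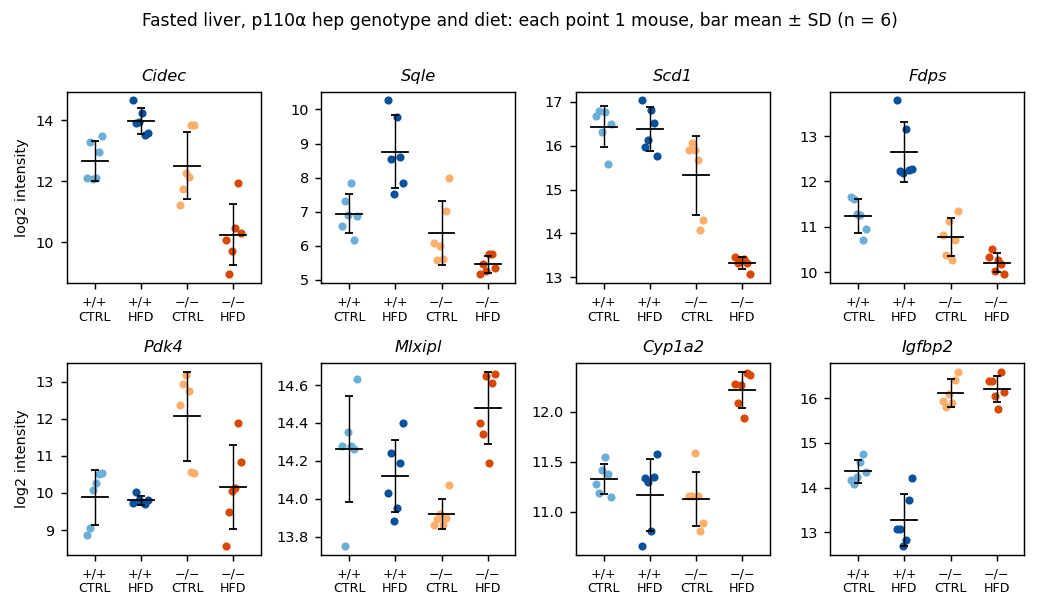
Log2 intensity of 8 called genes in each fasted mouse (points; +/+ and -/- are the p110α hep genotypes) with the mean and SD of the 6 mice of each group, on a separate scale per gene. Cidec ran from 8.94 to 11.95 in p110αhep-/- mice on HFD against 13.51 to 14.65 in p110αhep+/+ mice on HFD, and Mlxipl from 14.19 to 14.66 in p110αhep-/- mice on HFD against 13.86 to 14.07 on CTRL diet.

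Fatty acid oxidation and PPARα targets had 4 of 34 members called (11.8%), all below 0, and 30 of the 34 lay below 0, with a median of -0.22. Pdk4 encodes a kinase that closes pyruvate dehydrogenase during fasting. It ran from 8.87 to 10.53 (median 10.17) on CTRL diet and from 9.69 to 10.03 (median 9.78) on HFD in p110αhep+/+ mice, against 10.54 to 13.18 (median 12.57) and 8.57 to 11.88 (median 10.09) in p110αhep-/- mice. Each p110αhep-/- mouse on CTRL diet lay above every p110αhep+/+ mouse, by a narrow margin for the lowest, and those on HFD overlapped with all other groups. The interaction was -2.13 ± 0.56 (limma adjusted p = 0.0204), which lost the call without CTRL mouse 3 (-1.82, 0.0588) or HFD mouse 1 or 2 (-1.74 and -1.87, 0.0581 and 0.0618) of p110αhep-/-. Acot2, a mitochondrial acyl-CoA thioesterase, had diet differences of 0.29 with and -1.13 without p110α (interaction -1.48 ± 0.36, 0.0117). Ucp2, a mitochondrial carrier, had 0.66 and -0.15 (-0.82 ± 0.14, 0.000415), and the peroxisomal thiolase Acaa1b had -0.08 and -0.68 (-0.62 ± 0.18, 0.0333). Acaa1b lost the call in 9 of the 24 fits without 1 mouse, with an adjusted p of up to 0.112, and without CTRL mice 5 and 6 of p110αhep-/- (-0.57, 0.0634). Below the 1.5-fold threshold, Slc25a20, Hadha and Acaa2 passed the adjusted p with -0.43, -0.40 and -0.24. Ppara and Cpt1a, the gatekeeper of mitochondrial fatty acid uptake, had 0.13 and -0.23 (0.508 and 0.323).

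In glucose metabolism, the 17 genes of glycolysis and glucose uptake had a median of -0.12. None of 13 gluconeogenesis and glycogen genes was called with limma (2 had an unadjusted p under 0.05), and those 2 passed the adjusted p alone, Fbp1 with -0.29 (0.0216) and Ppp1r3b, a glycogen-targeting subunit of protein phosphatase, with 0.55 (0.0402).

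Igfbp2, an IGF-binding protein that liver secretes (probe chr1:72898677-72898736, mm9), ran from 14.07 to 14.76 (median 14.29) on CTRL diet and from 12.70 to 14.22 (median 13.07) on HFD in p110αhep+/+ mice. In p110αhep-/- mice it ran from 15.81 to 16.59 (median 16.02) and from 15.77 to 16.58 (median 16.26). All 12 p110αhep-/- mice lay above all p110αhep+/+ mice, and the means differed by -1.09 between the diets with p110α and by 0.09 without it. The interaction was 1.38 ± 0.26 (limma adjusted p = 0.00142). Igfbp2 and Trib3 (0.85 ± 0.24, 0.0314), an inhibitor of AKT, were the 2 called of 23 insulin signalling and FOXO target genes (8.7%), with a list median of 0.11. Trib3 lost the call in 8 of the 24 fits without 1 mouse and was 0.29 and 1.46 within washing batches 1 and 2. Igfbp2 was also the sole called gene of 18 hepatokines (5.56%).

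Among xenobiotic cytochromes P450, 4 of 24 were called (16.7%), 3 above 0. Cyp1a2, which oxidizes caffeine and aromatic amines (probe chr9:57528060-57528119, mm9), lay between 10.66 and 11.59 in the other 3 groups and between 11.94 and 12.39 in p110αhep-/- mice on HFD, without overlap. Its interaction was 1.20 ± 0.22 (limma adjusted p = 0.000932), with 1.23 and 1.19 within batches 1 and 2. Cyp2a4 and Cyp2a5, close paralogs whose probes may share signal, had 0.93 and 0.59 (0.0177 and 0.0454), and the latter lost the call in 14 of the 24 fits without 1 mouse. Cyp3a44 had an interaction below 0 (0.0442) but was above background on 1, 0 and 1 of 6 arrays in the groups other than p110αhep-/- mice on CTRL diet, so that only bounds are known there, and it lost the call in 17 of the fits. Cyp2c70, which in mice makes muricholic acids from bile acids, was not on these lists. It had diet differences of 0.73 with and 2.42 without p110α (interaction 1.54 ± 0.41, 0.0241), and 1.08 (0.0519) without CTRL mice 5 and 6 of p110αhep-/-. Of 22 bile acid genes, 18 lay above 0, and Abcg8, part of the sterol exporter, was called (4.55%; 0.87 ± 0.21, 0.00974).

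Outside the lists, the largest interactions above 0 were those of Krt23, a keratin (1.83 ± 0.39, limma adjusted p = 0.00444), Clec2h, a lectin-like receptor (1.81, 0.0337), and the noncoding Dio3os (1.75, 0.00179). Krt23 medians were 10.39 and 9.91 on CTRL diet and HFD in p110αhep+/+ mice, and 10.24 and 11.54 in p110αhep-/- mice. Clec2h lost the call in 8 of the 24 fits without 1 mouse and was 0.78 and 2.80 within washing batches 1 and 2. The glypican Gpc1 had 1.29 and the disintegrin Adam11 1.25 (0.015 and 0.00326). A second Adam11 probe of nearly the same mean level (8.15 against 8.33) had 0.11 (0.693). The Wnt inhibitor gene Wif1 was called above 0 (0.000616). Wif1 was above background on 3 of 6 arrays of p110αhep+/+ mice on CTRL diet and on none on HFD, so its level there is only a bound. The elastase gene Cela2a, a pancreatic acinar marker, had 1.31 (0.00734), and the 5 acinar markers measured had a median of 0.37. Below 0, Ly6d, a membrane-anchored protein, had diet differences of 1.98 with and -0.78 without p110α (interaction -2.55 ± 0.51, 0.0025). The ubiquitin-like gene Ubd had 1.79 and -0.51 (-2.10 ± 0.40, 0.00142).

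The smallest p values belonged mostly to genes of smaller interactions with little spread between mice. Those given in this and the next paragraph, other than Kbtbd11, were named after their values were seen. Kbtbd11 ran from 7.34 to 8.24 on CTRL diet and from 9.14 to 10.35 on HFD in p110αhep+/+ mice, and from 6.99 to 7.25 and from 6.92 to 7.44 in p110αhep-/- mice. A diet difference was therefore present with p110α (2.11) and nearly absent without it (0.11), and the interaction was -1.99 ± 0.28 (limma adjusted p = 3.61e-05). Tmem109, a nuclear membrane protein, had -0.53 ± 0.06 (5.81e-07), below the fold threshold, with p110αhep+/+ mice on HFD (12.69 to 12.98) above the other 18 mice (12.16 to 12.53).

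Ccdc163, with a coiled-coil product, differed in opposite directions, from a mean of 9.52 to 9.19 on HFD with p110α and from 9.33 to 9.60 without it (interaction 0.61 ± 0.07, 5.81e-07). Slc25a10, the mitochondrial dicarboxylate carrier, lay between 10.24 and 10.91 in the other 3 groups and between 9.63 and 9.89 in p110αhep-/- mice on HFD (-0.91 ± 0.14, 0.000253). The class I histocompatibility genes H2-Q10 and H2-Q7, which are near-identical in parts and may share signal, had -0.83 and -0.61 (3.85e-05 and 0.00021). Mug2, a secreted protease inhibitor, had 0.82 ± 0.11 (2.14e-05), with p110αhep-/- mice on HFD (15.16 to 15.47) above the other groups (14.40 to 15.14).

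**Figure D3:**
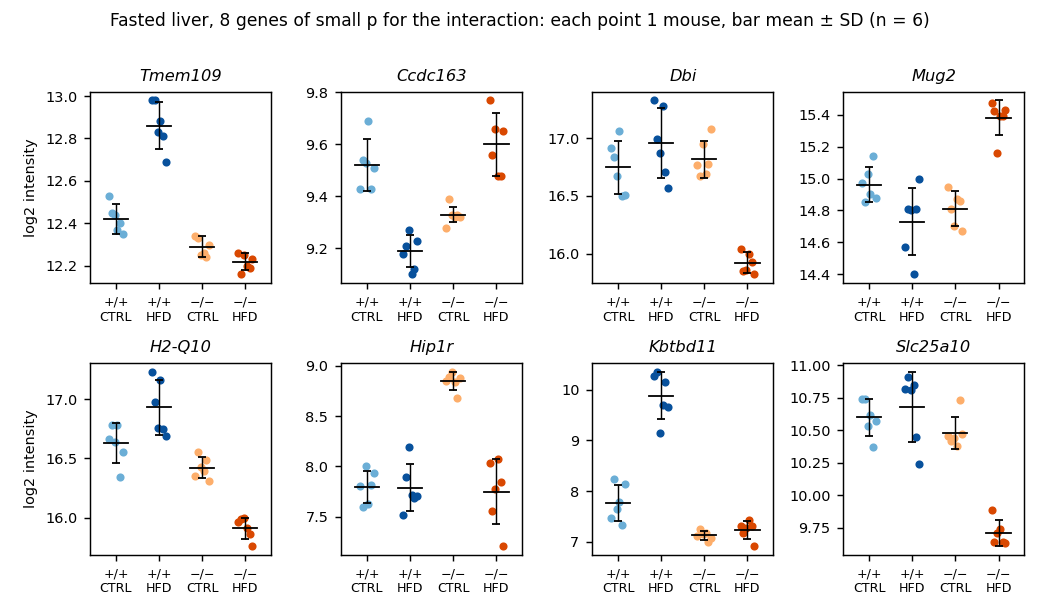
Log2 intensity in each fasted mouse (points) with the mean and SD of 6 mice per group for 8 genes of small p for the interaction. In Dbi, Slc25a10, H2-Q10 and Mug2 the p110αhep-/- mice on HFD lie apart from the other 3 groups, and in Kbtbd11 and Tmem109 the p110αhep+/+ mice on HFD do.

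Immune and matrix genes were called below 0 as well. Of 25 interferon-stimulated genes, 24 lay below 0 and 6 were called (24%), with a median of -0.58. Cxcl10, a chemokine, ran from 7.79 to 8.72 on CTRL diet and from 8.96 to 9.78 on HFD in p110αhep+/+ mice, and from 7.16 to 8.15 and from 6.85 to 8.24 in p110αhep-/- mice. It was higher on HFD in each p110αhep+/+ mouse, whereas the diets overlapped without p110α (interaction -1.44 ± 0.33, limma adjusted p = 0.00712). The antiviral genes Oasl1, Mx1, Usp18, Oasl2 and the GTPase Gbp2 had -0.93, -0.82, -0.92, -0.66 and -1.02, of which Usp18, Oasl2 and Gbp2 lost the call in 7, 11 and 17 of the 24 fits without 1 mouse.

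Of 17 Kupffer cell and macrophage markers, 5 were called below 0 (29.4%), with a list median of -0.51. They were Ccr2, the receptor of recruited monocytes (-0.79, 0.00252), Cd63 and Cd68 of lysosomes (-0.92 and -0.59, 0.0266 and 0.0204), and Trem2 and Gpnmb of lipid-associated macrophages (-1.36, 0.0385, for Trem2 and an adjusted p of 0.004 for Gpnmb). Of the 24 fits without 1 mouse, the call was lost in 13 for Trem2, 9 for Cd68 and 3 for Cd63. Ccr2 ran from 6.58 to 6.95 in p110αhep+/+ mice on HFD and from 5.65 to 6.36 in the other groups. Gpnmb was above background in all 6 p110αhep+/+ mice on HFD, in 2 on CTRL diet and in none of the 12 p110αhep-/- mice, whose levels are only bounds. Genes of resident Kupffer cells, Clec4f, Vsig4 and Timd4, had 0.03, 0.03 and -0.04. Of the other markers, Marco, Cd5l, Adgre1 and Csf1r had -0.67, -0.30, -0.12 and -0.10 and were not called (limma adjusted p = 0.7258, 0.5655, 0.855 and 0.8306). In the whole list, 15 of the 17 markers lay below 0. In bulk liver, fewer cells of a type and less RNA per cell cannot be told apart. The log2 of the summed marker signal ran from 15.468 to 16.738 in p110αhep+/+ mice on HFD and from 15.107 to 16.21 in the other 3 groups.

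The neutrophil markers S100a8, S100a9 and Retnlg had -1.39, -1.52 and -0.72 (limma adjusted p = 0.0386, 0.0426 and 0.0412), 3 of 8 markers called (37.5%), and lost the call in 10 or 11 of the 24 fits without 1 mouse. Within washing batches 1 and 2, S100a8 had -1.84 and -0.76, and S100a9 had -2.09 and -0.75. Ly6g, which defines neutrophils, had 0.39 (0.0662). None of 9 hepatocyte, 7 bile duct, 10 endothelial or 10 lymphocyte markers was called with limma (1, 3, 3 and 0 had an unadjusted p under 0.05), with list medians of 0.04, 0.00, 0.15 and -0.25. The log2 of the summed neutrophil marker signal ran from 14.845 to 15.084 in p110αhep+/+ mice on HFD and from 14.709 to 15.206 in the other groups. The summed bile duct marker signal ran from 11.472 to 12.124 in p110αhep+/+ mice on HFD, above every mouse of the other groups, which ran from 10.936 to 11.445 in p110αhep+/+ mice on CTRL diet and from 9.832 to 10.453 in p110αhep-/- mice. Only 3 of these 7 bile duct markers were above background on at least 5 arrays in all 4 groups, so part of this sum lies near background. Spp1, a marker of that list and also of the macrophage list, had an interaction of -0.76 (0.0705). The part that shifts in cell types had in these results was not tested. Of 21 collagen and matrix genes, 20 lay below 0 and 5 were called (23.8%). Col1a1, Col1a2, Col3a1, Col4a1 and Sparc had -1.32, -1.02, -1.08, -0.80 and -0.63 (adjusted p from 0.00794 to 0.0281), and the call was lost in 7, 2, 3, 0 and 2 of the 24 fits without 1 mouse. In Col1a1 both genotypes had higher means on HFD, by 1.72 with and 0.58 without p110α, and other probes of Col3a1 gave values up to -0.22. The antioxidant genes Gstm2, Cbr3 and Hmox1 had -1.16, -0.95 and -0.78 (0.00328, 0.0199 and 0.00607), 3 of 18 in their list (16.7%). Gstm2 had -0.79 and -1.56 within washing batches 1 and 2. The stress and immediate early factor Atf3 had -1.50 ± 0.31 (0.00329), with a diet difference of 1.07 with and -0.33 without p110α. Cell cycle genes had a median of -0.39, and Mcm4, Aurka and Top2a were called of 28 (10.7%), with -0.75, -0.71 and -0.74. They lost the call in 5, 16 and 16 of the 24 fits without 1 mouse.

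**Figure D4:**
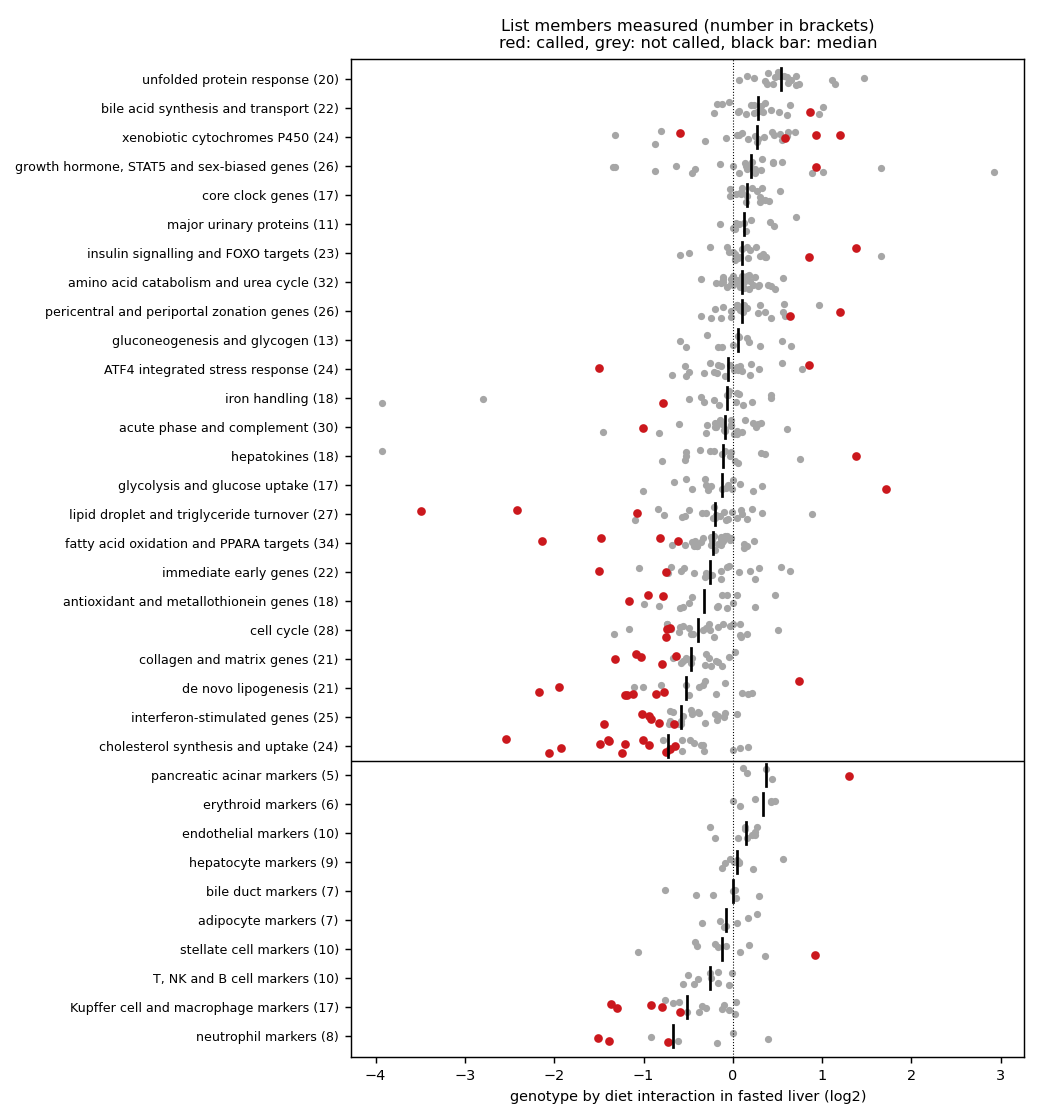
Interaction (log2) of each measured member of 24 gene lists (top) and 10 cell type marker lists (bottom), with called genes in red and the list median as a black bar. The medians run from -0.73 for cholesterol synthesis and uptake to 0.54 for the unfolded protein response, of which no member was called.

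The other lists had few or no calls. The 26 growth hormone, STAT5 and sex-biased genes had a median of 0.20 with Cyp2a4 called (3.85%). The 24 genes of the ATF4 integrated stress response had -0.06 with Trib3 and Atf3 called (8.33%), and the 22 immediate early genes -0.25 with Atf3 and the zinc finger factor Egr2 (-0.75, limma adjusted p = 0.0402; 9.09%). Egr2 lost the call in 14 of the 24 fits without 1 mouse. Il1rn, the antagonist of the IL-1 receptor, was called of 30 acute phase and complement genes (-1.01, 0.00919; 3.33%), and Hmox1 of 18 iron handling genes (5.56%). Of 26 zonation genes, Cyp1a2 and Slc1a2, a pericentral glutamate transporter (0.64, 0.0124), were called (7.69%). None of the 17 core clock genes, 11 major urinary proteins or 32 genes of amino acid catabolism and the urea cycle was called with limma (3, 2 and 4 had an unadjusted p under 0.05). Of these, Cry2 and Per2, which repress the clock, had 0.41 and 0.53 and passed the adjusted p alone (0.0114 and 0.0199), as did Otc of the urea cycle (0.39, 0.0402). The pericyte gene Rgs5 was called of 10 stellate cell markers (0.92, 0.0302; 10%), and lost the call in 6 of the 24 fits without 1 mouse. None of 6 erythroid or 7 adipocyte markers was called with limma (1 and 0 had an unadjusted p under 0.05), with medians of 0.34 and -0.08.

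Unfolded protein response genes, which encode the chaperones and folding enzymes of the endoplasmic reticulum, formed the list with the highest median, 0.54. All 20 measured members lay above 0, from 0.07 for Atf6 to 1.47 for Sdf2l1, but none was called with limma (13 had an unadjusted p under 0.05). Edem1, which marks misfolded glycoproteins for degradation, passed the adjusted p alone (0.45 ± 0.14, 0.0425). The chaperone Hspa5 (BiP) ran from 14.37 to 15.31 on CTRL diet and from 14.67 to 16.31 on HFD in p110αhep+/+ mice, and from 14.20 to 15.20 and from 15.04 to 16.05 in p110αhep-/- mice. Its groups overlapped and its interaction was 0.74 ± 0.31 (0.166). Pdia6, a disulfide isomerase, had 0.61 (0.0576), and Manf and Creld2, secreted stress proteins, had 1.14 and 1.11 (0.0975 and 0.201). In fed mice the median of the list was -0.07 and 14 of the 20 lay below 0.

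Promoter sequence was read for this list because its members lay on the same side of 0. The endoplasmic reticulum stress response element, searched on both strands as CCAAT, 9 bases of any kind and CCACG in the 250 bases before each RefSeq start site (GRCm38.p6), was found in 8 of the 17 promoters of listed genes (47.1%) and in 37 of all 32851 promoters (0.113%). The stretches below hold it in capitals with 15 flanking bases on the sense strand of the gene. In Creld2 it lies on the opposite strand, so that the capitals show its reverse complement. Hspa5 is at chr2:34772010-34772058, Pdia6 at chr12:17266476-17266524, Dnajc3 at chr14:118937812-118937860 and Creld2 at chr15:88819505-88819553.
Hspa5: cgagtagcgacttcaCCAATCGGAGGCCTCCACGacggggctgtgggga
Pdia6: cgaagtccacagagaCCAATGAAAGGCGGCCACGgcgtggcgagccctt
Dnajc3: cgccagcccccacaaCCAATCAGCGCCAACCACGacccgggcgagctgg
Creld2: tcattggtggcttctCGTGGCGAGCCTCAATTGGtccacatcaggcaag
The sterol regulatory element, searched as TCACNCCAC, was found in 1 of 19 promoters of 16 cholesterol genes (5.26%) and in 346 of all promoters (1.05%). That gene was Hmgcs1, with an interaction of -0.79 (limma adjusted p = 0.0537), at chr13:119690199-119690237. None of the 8 called cholesterol genes with a promoter held these letters in this window. A match is a description of letters, and binding was not measured. Members of both lists were chosen as genes of these pathways, so the shares of promoters with a match do not bear on the interaction.
Hmgcs1: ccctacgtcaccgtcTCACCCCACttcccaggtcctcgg

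The same interaction was read in the 24 fed mice, which are other animals, so that no array is shared. It was called for 287 genes (1.4%), 64 above 0 (0.312%) and 223 below 0 (1.09%), and 65 of them were also called in fasted mice (16.8% of the fasted and 22.6% of the fed calls). Of the 386 genes called in fasted mice, 309 (80.1%) had the same sign in fed mice, as did 56.9% of all genes. Across all genes, which are not independent, Pearson's r between the fasted and fed interactions was 0.35. Scd1 had -2.17 in fasted and -2.12 in fed mice, whereas Cidec had -3.49 and -0.52. The difference between the states was itself called for 76 genes (0.371%), 35 higher (0.171%) and 41 lower (0.2%) in fasted mice. For Cidec it was -2.98 ± 0.84 and was not called (limma adjusted p = 0.0903). For Scd1 it was -0.05 (0.976). The count was 8 without array weights or without the filter on dim probes, and 0 within either washing batch (with 1453 and 2030 genes at an unadjusted p under 0.05).

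Of the 386 genes, 20 were also among these 76. Hip1r, an endocytic adaptor (probe chr5:124452424-124452483, mm9), ran from 7.52 to 8.19 in fasted p110αhep+/+ mice of both diets, from 8.68 to 8.94 in fasted p110αhep-/- mice on CTRL diet and from 7.21 to 8.07 in those on HFD. Its level in p110αhep-/- mice on CTRL diet thus lay above all other fasted mice, with an interaction of -1.12 ± 0.16 (limma adjusted p = 3.53e-05) in fasted and 0.38 in fed mice, a difference of -1.50 ± 0.22 (0.000253). Hsd17b7 of sterol synthesis had -0.94 in fasted and 0.01 in fed mice (difference -0.95 ± 0.20, 0.0251). Bhlhb9 and the ciliary gene Fbf1 had differences of -1.93 and -1.41 (0.0139 and 0.0282).

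Other genes of large differences between the states were not called in fasted mice. Fabp5, a fatty acid-binding protein, had -1.03 (0.13) in fasted and 2.79 in fed mice, a difference of -3.82 ± 0.58 (limma adjusted p = 0.000253). In fasted mice its mean ran from 10.61 to 10.39 on HFD with p110α and from 12.53 to 11.16 without it. Agpat9, an acyltransferase of triglyceride synthesis, had 0.21 and 2.00 (difference -1.79 ± 0.43, 0.0422). Slc2a4, the insulin-regulated glucose transporter of muscle and fat, had 0.51 and -1.77 (difference 2.28 ± 0.42, 0.00678), and levels from 5.90 to 7.78 in fasted liver. The autophagy kinase gene Ulk1 had 0.19 and -0.73 (0.91 ± 0.17, 0.00678), the mitochondrial carrier Slc25a47 0.17 and -0.75 (0.92, 0.02), the aminotransferase Ccbl2 0.83 and -0.84 (1.67, 0.0467) and the steroid dehydrogenase Hsd17b6 0.48 and -0.81 (1.29, 0.0459). The call for the difference was lost in 12 of the 24 fits without 1 mouse for Agpat9, 17 for Ccbl2 and 15 for Hsd17b6. The fatty acid oxidation list had a median of -0.22 in fasted mice, with 30 of 34 below 0, and 0.19 in fed mice, with 6 below 0. Of its members, 2 were called for the difference between the states.

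**Figure D5:**
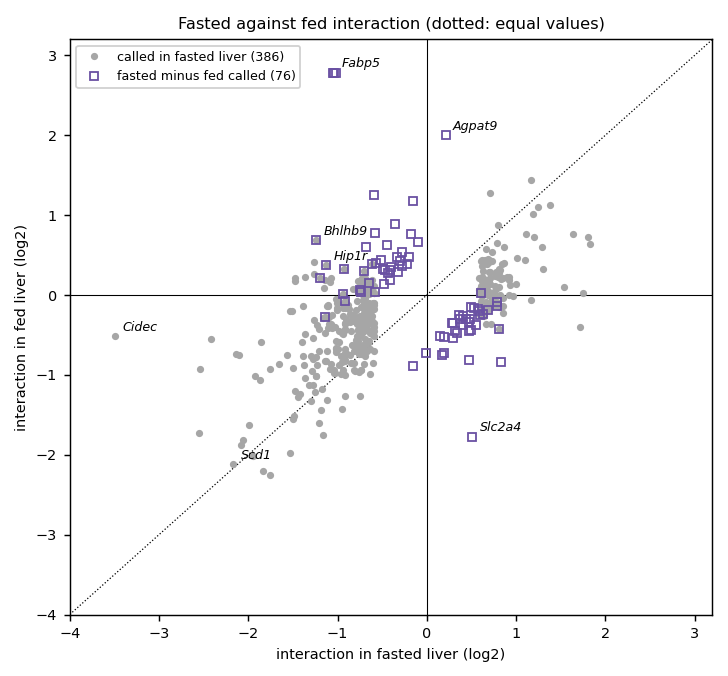
Genotype by diet interaction (log2) in fasted mice (horizontal) against fed mice (vertical) for the genes called in fasted mice (grey, 386) and those called for the difference between the states (squares, 76), with the dotted line where both are equal. Scd1 lies on the line (-2.17 and -2.12), and Fabp5 lies farthest from it (-1.03 and 2.79), beside 2 unnamed probes of nearly the same values.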

How the data were processed

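Liver RNA of 48 mice was hybridised to 1-colour Agilent 60-mer mouse arrays, 6 mice per group and 1 array per mouse. The scanner files deposited by the authors hold spot intensity values from Agilent Feature Extraction 10.10.1.1 (submitters' processing notes), and the authors also deposited a table of normalized log2 values, used as an alternative. Precision is limited by the number of arrays. Following the study's methods, log2 median signals without outlier spots were kept where at least 5 of 6 arrays of a group were well above background (30793 of 56605 probes, 20486 genes). The washing batch was removed, arrays were quantile normalized, and limma 3.58.1 (R 4.3.3, statmod 1.5.0, the data.table package in version 1.17.8) was fitted to all 8 groups with array weights and Benjamini-Hochberg adjustment over all probes kept. A gene was read from its probe of highest mean level. Probe positions are those of the files (mm9), and exon annotation of that build was not used here.

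Named genes were Pik3ca, the 10 largest called interactions in each direction, called members of 24 gene lists and 10 marker lists, at most 2 members of lists without calls, and the 5 largest fasted minus fed differences in each direction; others are values given for a list or are said to be named after their values were seen. Some genes that this rule names are not reported here. The members and lists were chosen with earlier results of these data known. In data simulated with a log2 change of 1 in 200 of 20486 genes, the fasted interaction recovered 93% with 5 false calls, and fasted minus fed 76.5% with 3. The simulated errors were independent between genes and between mice, and the change exceeded the median size of the called interactions (0.78). These rates therefore check the computation and do not give the error rate of the calls reported here. Mice were not treated as paired by replicate number. Mice that shared a number had a median correlation of deviations of 0.0623 (up to 0.322), with 12 of 36 pairs over 0.1. Mice that shared a slide had 0.0233, with 8 of 36 pairs over 0.1. This check cannot settle whether the mice were paired. Samples of a group are separate mice.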

Additional observations from a re-analysis of the deposited data

Results flagged for a closer look

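In 28 of 468 gene and group combinations tested, 1 of the 6 mice stood apart from the others by Dixon's criterion at the 95% level, where chance at 1 in 20 gives 23.4. In p110αhep-/- mice on CTRL diet, mouse 6 stood apart in Cbr3 (7.65), Cyp3a44 (6.60), Me1 (11.51), Mlxipl (14.07), Retnlg (6.37) and Rgs5 (8.70), and mouse 5 in Top2a (5.41) and Slc25a10 (10.73). In p110αhep-/- mice on HFD, this was mouse 5 for Elovl5 (13.08), mouse 4 for Gbp2 (9.09) and Nkg7 (7.80), mouse 6 for Ppp1r3b (14.84), and mouse 3 for Pdia6 (13.80), Hnf4a (16.27), Stab2 (12.90) and Mug2 (15.16). In p110αhep+/+ mice on HFD, it was mouse 1 for Gpc1 (13.19) and Fabp5 (11.19), and mouse 2 for Pdk4 (10.03), Il1rn (6.86) and Alas2 (12.65). In the same group it was mouse 5 for Hmox1 (11.08) and Sparc (13.98), mouse 6 for Fbp1 (16.92), and mouse 3 for Slc2a4 (6.03) and Agpat9 (11.74). In p110αhep+/+ mice on CTRL diet, it was mouse 6 for Hsd17b7 (11.00) and mouse 1 for Alas2 (13.16).

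The interaction differed between fasted and fed mice by a test of the difference itself in 76 genes. Of those named, it was higher in fasted mice for Slc2a4 (2.28), Ccbl2 (1.67), Hsd17b6 (1.29), Slc25a47 (0.92) and Ulk1 (0.91). It was lower for Fabp5 (-3.82), Bhlhb9 (-1.93), Agpat9 (-1.79), Hip1r (-1.50) and Fbf1 (-1.41).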

How the results depend on the processing

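The 386 called genes became 1042 without a fold threshold, 113 (17 above and 96 below 0) with a threshold of 2-fold, 247 without the filter on dim probes, and 9 and 155 with washing batch 1 or 2 only, where 3 mice per group remain. Under the other settings with all mice, including other signals, background correction, scaling, filters, blocks and the authors' table, the count lay between 277 and 498. With the replicate block it was 377, of which 347 were among the 386. Leaving out 1 mouse gave 292 to 536, and 207 genes were called in all 24 of these fits. The 67 called list members became 42 without the filter, 1 in batch 1 and 16 in batch 2, and 49 to 83 without 1 mouse. The replicate block gave 65 of them. The cause of these changes was not tested.

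The 76 genes called for the difference between fasted and fed mice became 20 with a threshold of 2-fold, 8 without the filter, 24 with the washing batch not removed, 8 without array weights, and 0 with either batch only (limma; 1453 and 2030 genes at an unadjusted p under 0.05). With the replicate block the count was 57, of which 56 were among the 76. It lay between 31 and 141 without 1 mouse, and was 31, 36, 49 and 141 without p110αhep+/+ HFD mouse 2, 3, 4 or 6, and 45 and 116 without p110αhep-/- HFD mouse 3 or 4. Of the 76, 26 were called in all 24 fits. The calls of Ccbl2, Hsd17b6 and Agpat9 were lost in 17, 15 and 12 of them, and that of Fbf1 in 2.

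The sign turned for Acacb with the median over its probes (0.34) and for Pik3ca in washing batch 2 only (-0.08). The median over probes also ended the calls of Fads1 (-0.20), Col3a1 (-0.28) and Lss (-0.44). Leaving out mice 5 and 6 of the p110αhep-/- CTRL group together was chosen after seeing the data. It gave 348 calls, 97 above and 251 below 0, and 84 for the difference between fasted and fed mice, and it ended the calls of Cyp2c70, Clec2h (1.60), Cidea (-2.35), S100a8 (-1.31), S100a9, Retnlg, Trem2, Acaa1b, Cyp2a5, Cyp3a44, Fads2, Me1, Mcm4, Rgs5, Gbp2, Oasl2 and Usp18, and of Ccbl2 and Hsd17b6 for the difference between the states. Of the 386 called genes, 329 (85.2%) were above background on 5 or more arrays in all 4 fasted groups. In 19 (4.92%), of which 17 had an interaction below 0, a fasted group had 0 arrays above background. Signal over background limits what can be said of such genes. Wif1, Gpnmb, Cyp3a44 and Sqle, which were at background in at least 1 group, are examples and not a full list.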
